A study of Mus musculus with 24 samples.

Results

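The respiratory chain genes are the genes for the protein subunits of complexes I, III and IV and of the ATP synthase, called complex V here. They were chosen by symbol: Ndufa, Ndufb, Ndufc, Ndufs and Ndufv genes, Uqcr genes, Cox4 to Cox8 genes, Atp5 genes, and the mitochondrially encoded mt-Nd, mt-Co, mt-Cytb and mt-Atp genes. Cox4i2, Ndufa4l2, the Ndufaf assembly factors and symbols ending in -ps were left out. The rule found 92 genes among the 25471 genes listed in 3 deposited tables, 79 of them nuclear and 13 mitochondrially encoded. The symbol puts Ndufa4 with complex I, although its protein is now placed in complex IV.

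The study sorted cells from embryonic mouse brain and made 24 messenger RNA libraries. Pericytes, the mural cells of small vessels, came from E11.5 embryos (4 control and 4 mutant libraries) and from E13.5 embryos (4 and 4), the E standing for embryonic day. Endothelial cells, which line the vessels, came from E13.5 embryos (5 control and 3 mutant libraries). Control embryos were Pdgfrb-Cre, Alk5(flox/+), Zs/+ and mutant embryos were Pdgfrb-Cre, Alk5(flox/flox), Zs/+, so both carried the Cre and the green reporter and the controls kept 1 unfloxed Alk5 allele. Mutants carry the disease label GMH-IVH, the usual abbreviation for germinal matrix and intraventricular haemorrhage, and controls the label normal. Pdgfrb-Cre acts in the Pdgfrb lineage, that is pericytes and other mural and mesenchymal cells, so the endothelial cells are those of embryos whose mural lineage was targeted. The labels do not say whether 1 library is 1 embryo or a pool.

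Alk5 is the protein of Tgfbr1, a TGF-beta receptor. In the authors' deposited tables the whole-gene mean of Tgfbr1 was 4609 in control and 6196 in mutant E11.5 pericytes (log2 ratio 0.43, SE 0.27, adjusted p = 0.399), 5700 and 5823 at E13.5, and 3066 and 2849 in endothelial cells. A count over the whole gene does not show whether the floxed part was removed, so it checks no label. In E11.5 pericytes 4 of 9 tested pericyte markers were lower in mutants, among them Rgs5 at 2034 and 490.3 (adjusted p = 0.037 by the authors' deposited table), while Pdgfrb was at 4200.5 and 4474. The authors' endothelial means included Cldn5 at 27554 and 28980 and Pdgfrb at 207 and 181 in control and mutant cells. Of the 12 endothelial markers there, 9 lay below 0, with a median log2 ratio of -0.24.

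Complex I takes electrons from NADH, complex III passes them to cytochrome c, and complex IV hands them to oxygen. All of these pump protons, and the ATP synthase uses the gradient to make ATP. Complex I, III and IV and the ATP synthase each join nuclear and mitochondrially encoded subunits. The catalytic cores descend from bacterial proteins, whereas most accessory subunits are short proteins of the membrane arms, added later in evolution and needed for assembly and stability. Nuclear subunit genes are widely expressed and share promoter sites for NRF1, for the ETS factor GABP (also called NRF2) and for YY1. Endothelial cells are known to draw much of their ATP from glycolysis.

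Promoters are shown first as background, since NRF1, GABP and YY1 are textbook regulators of nuclear respiratory genes. Their part in the ratios below was not tested. RefSeq promoters on GRCm38.p6, the same build as mm10, were matched for 63 of the 79 nuclear members (68 promoters, each 250 bases before to 50 after a start). The NRF1 letters GCGCATGCG, searched on both strands, stood in 11.8% of member promoters and 1.75% of all 32851 promoters. The ETS letters CCGGAAG stood in 22.1% and 8.86%, and the YY1 letters AAGATGGCG in 10.3% and 1.40%. The NRF1 letters are nearly a palindrome, so 1 run of 10 bases can match on both strands. Below are 100-base stretches upstream of 3 members that were higher in mutant endothelial cells and 2 that were not called there, with the NRF1 and ETS letters in capitals, on the gene's strand.
Cox6a1, chr5:115349066-115349165, minus strand: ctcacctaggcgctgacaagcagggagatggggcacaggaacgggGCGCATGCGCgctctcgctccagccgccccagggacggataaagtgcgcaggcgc
Atp5l, chr9:44920893-44920992, minus strand: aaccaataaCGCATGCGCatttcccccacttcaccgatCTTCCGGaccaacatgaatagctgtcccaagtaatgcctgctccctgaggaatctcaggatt
Ndufa11, chr17:56717657-56717756, plus strand: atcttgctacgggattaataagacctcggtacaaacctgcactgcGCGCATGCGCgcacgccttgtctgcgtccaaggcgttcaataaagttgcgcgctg
Atp5g2, chr15:102671048-102671147, minus strand: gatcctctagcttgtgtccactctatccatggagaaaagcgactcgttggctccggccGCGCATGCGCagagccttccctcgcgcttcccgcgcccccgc
Ndufa8, chr2:36049339-36049438, minus strand: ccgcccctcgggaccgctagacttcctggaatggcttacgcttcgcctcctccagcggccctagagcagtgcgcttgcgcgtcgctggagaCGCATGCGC
The letters stood upstream of genes on both sides of the threshold. Among member promoters, NRF1 letters stood in 15.4% of those of genes higher in mutant endothelial cells (4 of 26) and in 7.32% of those tested and not called (3 of 41). ETS letters stood in 30.8% (8 of 26) and 14.6% (6 of 41), and YY1 letters in 3 of 26 and 4 of 41. A match of letters is a description of the sequence and no evidence of binding.

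The values are the authors' group means of normalized counts, 1 per group, so no value per library can be given and the depth per library is unknown. In the authors' deposited tables each gene has a ratio of mutant to control, a p-value and a false discovery rate. The log2 of that ratio is used here, the false discovery rate is printed as the adjusted p, and a gene with an adjusted p under 0.05 is called higher or lower. The SE of each log2 ratio is the one implied by the deposited ratio and p-value. Levels are compared between genes per kilobase of transcript. The tables were normalized separately, so levels from different tables are set side by side as descriptions, with no test.

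As a group, the mitochondrially encoded transcripts outweighed the nuclear members in every table. They made up 2.04% of the summed means in control E11.5 pericytes, 2.76% in control E13.5 pericytes and 1.88% in control endothelial cells, and the nuclear members together made up 0.710%, 0.335% and 0.701%. Per kilobase, the median mitochondrially encoded gene was at 16.8, 45.7 and 14.6 times the median nuclear member in those control groups. The highest nuclear members per kilobase included Atp5b, the catalytic beta subunit of the ATP synthase, at 5559, 7065 and 9297, and Cox4i1, the main form of complex IV subunit 4, at 5894, 3708 and 7486. Atp5k, subunit e of the ATP synthase, was the lowest nuclear member per kilobase in both pericyte tables, at 51.6 and 30.2. It had no adjusted p in the E13.5 tables, and mt-Nd6 had no value in the E11.5 table. Cox6a2, the muscle form of subunit 6a, was listed only for endothelial cells, at 12.6 in controls. That left 90 members tested in each pericyte table and 91 in the endothelial table.

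**Figure D1:**
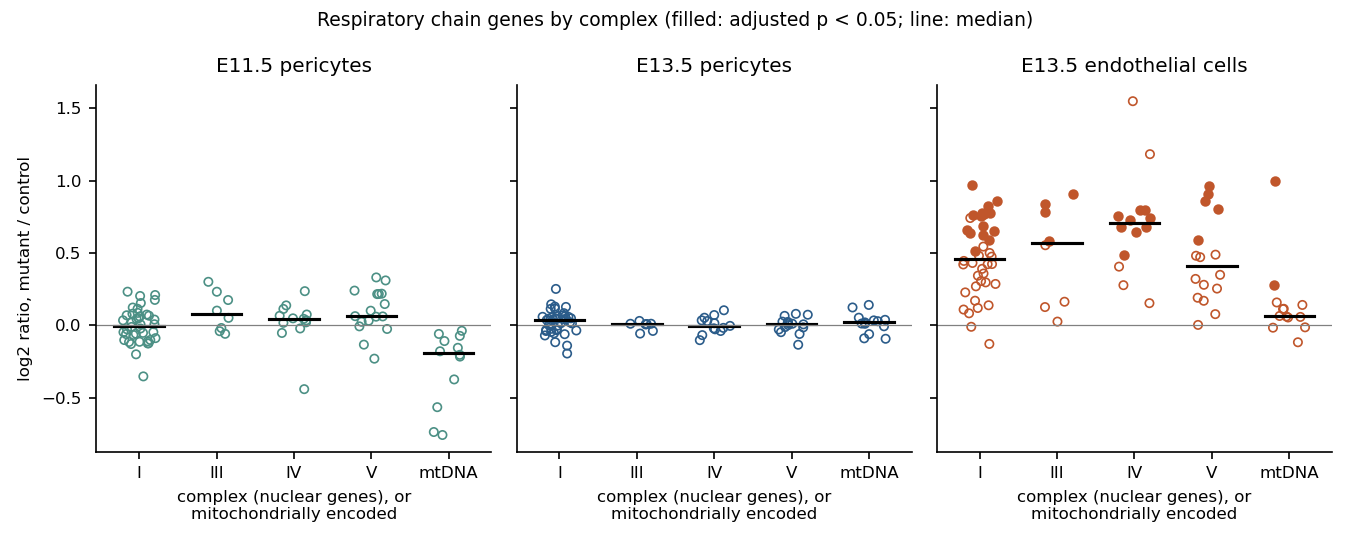
Log2 ratio of mutant to control (vertical axis) for each tested member, by complex for nuclear genes and together for mitochondrially encoded genes, in the 3 comparisons. Each point is a gene, filled where its adjusted p is under 0.05, and the lines are medians. Called members appear in endothelial cells and nowhere in either pericyte panel, and the mitochondrially encoded points of E11.5 pericytes all lie below 0.

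In E13.5 endothelial cells 35 of the 91 tested members were higher in mutants and 0 were lower. Over all genes tested there, 5.11% were called higher and 7.30% in either direction (926 higher and 397 lower). The median log2 ratio was 0.49 for the nuclear members, a ratio of 1.40, beside -0.01 for all tested genes, and 76 of 78 nuclear members lay above 0. The shift ran through the nuclear parts of all 4 complexes: 15 of 40 complex I genes were higher, 4 of 8 of complex III, 9 of 14 of complex IV and 5 of 16 of the ATP synthase. The called genes include 4 processed pseudogenes, near copies of other members, and without them 31 of 87 tested members were higher. The 13 mitochondrially encoded members had a median of 0.06, and 2 of them were higher. The SEs rest on the authors' test: when the spread of all genes' test statistics was rescaled to a standard normal, 1 member, mt-Nd3, was called. Over all tested genes 49 were called in that setting, in place of 1323. Scaled to the summed means of each group, 28 members were higher, the nuclear median was 0.36 and the mitochondrial median -0.06. Over all tested genes, 634 of 2199 calls (28.8%) were then higher, in place of 926 of 1323.

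Among the nuclear complex I genes, all 15 calls were in genes grouped as accessory. These include the near copies Ndufa11b, Ndufb4c and Ndufs6b, whose reads cannot be told apart from those of accessory subunit genes. Ndufa6 (GRCm38 chr15:82350140-82354322), an accessory subunit of the arm that faces the matrix, had means of 1222 in controls and 2093 in mutants, a log2 ratio of 0.78 with an SE of 0.14 (adjusted p = 1.47e-05 by the authors' deposited table). Ndufa3, a short membrane-arm subunit, went from 789 to 1544 and Ndufa2, of the matrix arm, from 1024 to 1858, log2 ratios of 0.97 and 0.86. Ndufa1, needed for assembly of the membrane arm and carried on the X chromosome, had means of 389.6 and 691, a log2 ratio of 0.83. Ndufa13, also known as GRIM19, had means of 936 and 1585, a log2 ratio of 0.76. In each of these genes the mutant mean was over 1.5 times the control mean.

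The 7 nuclear core subunits of complex I, which hold the flavin and the iron-sulphur clusters, had 0 calls and a median log2 ratio of 0.23. The 33 genes grouped as accessory, near copies included, had 15 calls and a median of 0.52. The split into core and accessory subunits was made after the values were seen. Neither it nor the role groups of complex III and the ATP synthase below took transcript length into account. Ndufs1, the largest iron-sulphur subunit, had the lowest ratio of all members, with means of 1765 and 1615 (log2 ratio -0.13, SE 0.11, adjusted p = 0.565). Ndufv1, the subunit that binds NADH, had a log2 ratio of 0.08. Ndufs8 had 0.44 without passing the threshold (adjusted p = 0.103 by the authors' deposited table).

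In complex III the 5 small subunits had a median log2 ratio of 0.78, and 4 of them were higher. Uqcr11 (chr10:80402997-80406830) had means of 852 and 1595 (log2 ratio 0.90, SE 0.20, adjusted p = 0.00051 by the authors' deposited table). Uqcrq, the ubiquinone-binding small subunit, had means of 1969 and 3387, a log2 ratio of 0.78, and Uqcr10 had 2035 and 3629. Uqcrb, the fifth small subunit, had a log2 ratio of 0.55 and missed the threshold (adjusted p = 0.0882 by the authors' deposited table). The core proteins Uqcrc1 and Uqcrc2 stood at 0.03 and 0.13, and Uqcrfs1, the Rieske iron-sulphur protein, at 0.16 (adjusted p = 0.344).

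Complex IV had the highest median of the nuclear groups, 0.70. Cox8a (chr19:7215153-7217616), the common form of subunit 8, had means of 2391 and 3962 (log2 ratio 0.73, SE 0.14, adjusted p = 2.52e-05 by the authors' deposited table). Cox6c had means of 903 and 1566, a log2 ratio of 0.79, and Cox6a1, the form of subunit 6a found outside muscle, had 3245 and 5082, a log2 ratio of 0.65. Cox7b, Cox6b1, Cox7a2, Cox7c and Cox5b were called as well, with log2 ratios from 0.49 to 0.75. Cox4i1 and Cox5a, among the first nuclear subunits to join the mitochondrially encoded core, had log2 ratios of 0.41 and 0.28 and were not called (adjusted p = 0.114 and 0.0988).

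In the ATP synthase the small membrane subunits had a median of 0.86, with 3 of 4 tested higher. Atp5j2 (chr5:145183698-145192062), subunit f, had means of 801 and 1558 (log2 ratio 0.96, SE 0.19, adjusted p = 5.57e-05 by the authors' deposited table), and Atp5l, subunit g, had 686 and 1199, a log2 ratio of 0.81. Atp5mpl, a small proteolipid, had 649 and 1219. The catalytic head stood apart from these: Atp5a1 and Atp5b, its alpha and beta subunits, had log2 ratios of 0.00 and 0.08, with means of 12322 and 12349 and of 17813 and 18796. Among the 5 genes of F1, the part that holds this head, Atp5e, the short epsilon subunit, was the 1 called. It had means of 1254 and 2274 (log2 ratio 0.86, adjusted p = 0.00661 by the authors' deposited table). None of the 4 peripheral stalk genes was called, and their median was 0.40.

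The calls were also set against transcript length, the median length of a gene's annotated transcripts. Of nuclear members with transcripts under 500 nt, 13 of 16 were higher, with a median log2 ratio of 0.79. These include the near copies Cox6c2, Ndufa11b and Ndufb4c, at 231, 424 and 390 nt. Their parent genes Cox6c, Ndufa11 and Ndufb4 have transcripts of 606, 545 and 971 nt. The length values here were not computed without the near copies. The share of nuclear members higher was 14 of 30 from 500 to under 750 nt, with a median of 0.55. It was 3 of 10 from there to under 1000 nt and 2 of 9 from there to under 1500 nt, with medians of 0.43 and 0.23. From 1500 to under 2500 nt 0 of 10 were called, with a median of 0.11. Across the 78 nuclear members the Spearman correlation of log2 ratio and length was -0.71, a description over genes that share the same 8 libraries. Atp5g1, a c-ring gene, went against the pattern: it was higher (log2 ratio 0.59, adjusted p = 0.000568 by the authors' deposited table) with a median transcript of 2676 nt. Subunit role and length overlapped: Atp5a1 and Atp5b had transcripts of 2572.5 and 1916 nt, and Atp5e and Ndufa3 of 421 and 433 nt. The parts of role and length in the ratios were not told apart.

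Genes outside the respiratory chain also had lower ratios at greater length in this table, with a Spearman correlation of -0.44 across 13228 other protein-coding genes without the cytosolic ribosomal proteins. The difference between the correlations was not tested. Of these genes, 39.5% of those under 500 nt were higher, with a median log2 ratio of 0.66, and 34.0% of those from 500 to under 750 nt, with a median of 0.44. Of those of 2500 nt and over, 0.554% were higher and 4.38% lower, with a median of -0.14. The medians of the members in those first 2 ranges, computed with the near copies, were 0.79 and 0.55 and lay above these, without a test. Those of the cytosolic ribosomal proteins in the same ranges, 0.92 and 0.59, lay above the members' medians. The part of length in the members' ratios was not tested further. In the pericyte tables the correlation across nuclear members was 0.44 at E11.5, a rise with length, and 0.01 at E13.5. Across the other protein-coding genes without the cytosolic ribosomal proteins it was -0.10 and 0.02.

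**Figure D2:**
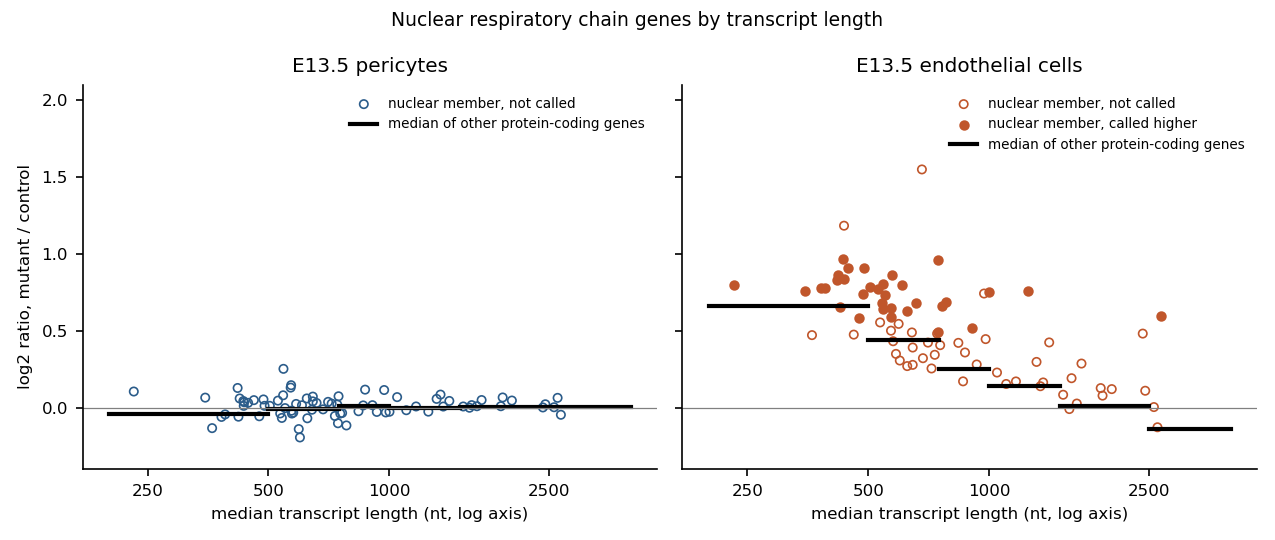
Log2 ratio of mutant to control against median transcript length (nt, log axis) for nuclear members in the E13.5 tables. Points are genes, filled where called higher, and black bars are medians of other protein-coding genes without cytosolic ribosomal proteins in 6 length ranges, the outer ranges being open-ended. In endothelial cells both fall with length, from 0.79 and 0.66 under 500 nt, and in pericytes both stay near 0.

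Markers of blood cells moved in the same table. Of 15 tested erythroid markers 12 were higher and 1, Tfrc, was lower, with a median log2 ratio of 3.61, and their summed mean was 69001 in controls and 1721890 in mutants. The defining globin gene Hbb-y had authors' means of 15002 and 495119. Haemoglobin genes took 0.302% of the summed means in controls and 7.45% in mutants. Of 12 myeloid markers 3 were higher, and their summed mean was 13725 and 24087. Of 12 endothelial markers 1, Kdr, was lower and 9 lay below 0, with summed means of 152736 and 131696. None of these listed markers was at 0 in either group. The part of blood cells in the members' ratios was not tested, and more cells of a type cannot be told apart from more RNA per cell in these sorted pools. Scaled to the summed means without haemoglobin and mitochondrial genes, 34 members were higher, and the nuclear median was 0.47. Over all tested genes, 874 of 1340 calls were higher in that setting.

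Of 78 tested cytosolic ribosomal protein genes 57 were higher in mutant endothelial cells, with a median log2 ratio of 0.51, close to that of the nuclear respiratory chain genes. Rplp1, an acidic stalk protein, had a log2 ratio of 0.91. The mitochondrial ribosome had 9 of 78 genes higher, a median of 0.25, with Mrpl57 at 0.54 and Mrpl33 at 0.77. The assembly factors of the chain had 8 of 47 higher and 1 lower, a median of 0.13. Those higher included Ndufaf8 of complex I (log2 ratio 0.78) and Cox17, the copper chaperone of complex IV (0.71), and Cox11, which also delivers copper, was lower at -0.77.

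Other parts of mitochondrial metabolism had few calls in endothelial cells, where 7.30% of all tested genes were called in either direction. Lists this short would hold few calls at that share, so the counts set no contrast with the respiratory chain. Complex II, the only complex with no mitochondrially encoded subunit, had 0 of 4 genes called, with Sdha at -0.15 and Sdhb at 0.27. The mobile carrier gene Cycs and the cytochrome c1 gene Cyc1 had log2 ratios of 0.27 and 0.17 and were not called. Cyc1 encodes a subunit of complex III, but the rule does not reach its symbol. The citric acid cycle list had 0 of 16 called and a median of -0.04, coenzyme Q synthesis had 0 of 13, and mitochondrial DNA upkeep and transcription had 0 of 28. Glycolysis had 1 of 17 higher, Aldoa at 0.27. Of 9 regulators of mitochondrial biogenesis 1 was lower, Pprc1, a PGC-1-related coactivator (log2 ratio -0.57, adjusted p = 0.0173 by the authors' deposited table). The genes for the factors whose letters are shown above were not called: Nrf1 at -0.15, Gabpa at -0.22 and Yy1 at -0.01.

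**Figure D3:**
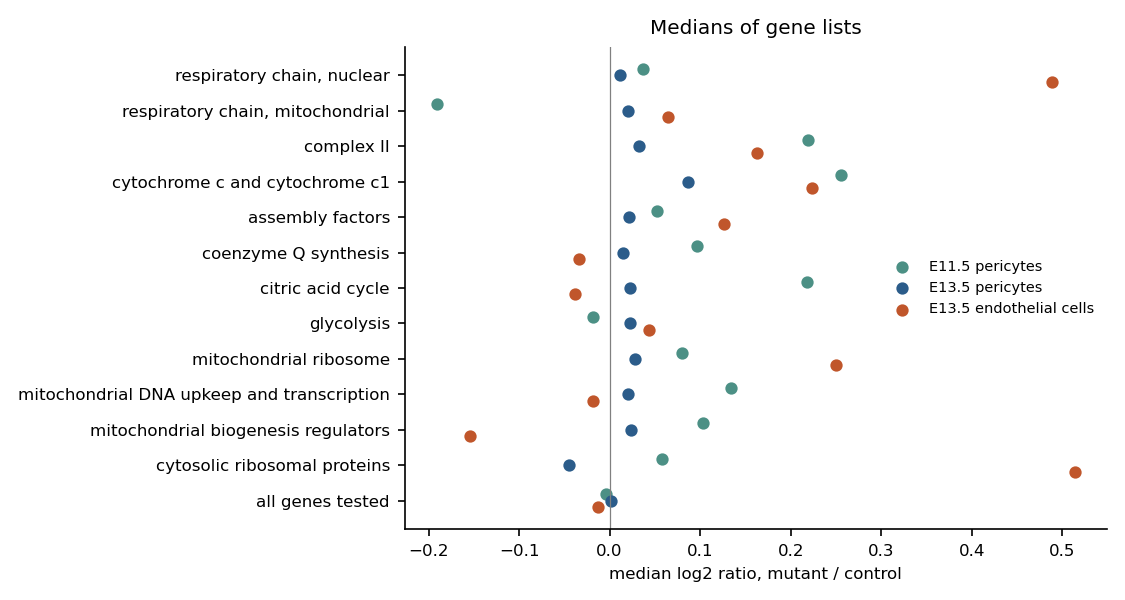
Median log2 ratio of mutant to control (horizontal axis) of the respiratory chain genes and of 10 other gene lists, with all tested genes in the last line. Each point is 1 comparison. In endothelial cells the nuclear members and the cytosolic ribosomal proteins stand at 0.49 and 0.51, and in E13.5 pericytes every list lies within 0.1 of 0.

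Of the mitochondrially encoded genes, mt-Nd3 (chrM:9459-9806), a subunit of the complex I membrane arm, had the smallest adjusted p of all members in endothelial cells. Its authors' means were 250.5 in controls and 500.02 in mutants, a log2 ratio of 1.00 with an SE of 0.13 (adjusted p = 1.73e-10 by the authors' deposited table). It was also the lowest mitochondrially encoded gene per kilobase there, at 720 against 121118 for mt-Cytb in controls. mt-Nd2 (chrM:3914-4951) had means of 8123 and 9862, a log2 ratio of 0.28 with an SE of 0.08 (adjusted p = 0.00759). The other 11 were not called, with log2 ratios from -0.12 for mt-Nd4l to 0.16 for mt-Nd6. mt-Nd4l and mt-Nd4, the next protein genes along the genome after mt-Nd3, had log2 ratios of -0.12 and -0.01. Scaled to the summed means, mt-Nd2 was no longer called. The per-kilobase median of mitochondrially encoded over nuclear members was 14.6 in control and 11.52 in mutant endothelial cells, a pair of values with no test.

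Cox6b2 and Cox6a2, forms of complex IV subunits otherwise known from testis and from muscle and heart, had the largest log2 ratios of all members in endothelial cells, 1.18 and 1.55, at low means and without passing the threshold (adjusted p = 0.054 and 0.0648 by the authors' deposited table). Their shares of the per-kilobase level of their pairs were 2.78% and 3.74% for Cox6b2 and 0.324% and 0.604% for Cox6a2 in control and mutant cells. Cox7a1, Cox7b2, Cox8b and Cox8c were not among the genes listed in any of the comparisons. Among the c-ring genes, which make the same mature protein, Atp5g3 held 72.8% of the per-kilobase level in controls and 70.1% in mutants, and Atp5g1, the 1 called, held 9.80% and 11.9%. The 4 members Cox6c2, Ndufa11b, Ndufb4c and Ndufs6b are annotated as processed pseudogenes, near copies of Cox6c, Ndufa11, Ndufb4 and Ndufs6. All 4 were higher in mutant endothelial cells, and their reads cannot be told apart from those of the parent genes in these tables. Without them 31 of 87 tested members were higher.

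In E13.5 pericytes 0 of 90 tested members were called at the adjusted p of 0.05, in a table where 0.388% of tested genes were called. The authors' test (DESeq2, per the submitters' processing notes) gave 815 of all 20084 tested genes an unadjusted p under 0.05. Of the members 1 was among them, Ndufa11, with means of 250.01 and 298 and a log2 ratio of 0.25. Median log2 ratios were 0.04 for nuclear complex I genes, 0.01 for complex III, -0.00 for complex IV, 0.01 for the ATP synthase and 0.02 for the mitochondrially encoded genes. The members had a median SE of 0.09 there. Cox8a, with means of 1773 and 1768, had a log2 ratio of -0.00 with an SE of 0.07. Ndufa6 had means of 485 and 465, and Atp5j2 808 and 850.1. Beside these, Cox4i2, the form of subunit 4 known to be induced by low oxygen and left out by the rule, was higher, with means of 60.5 and 110 (log2 ratio 0.86, SE 0.22, adjusted p = 0.0263 by the authors' deposited table). It made up 2.19% of the Cox4i1 and Cox4i2 per-kilobase level in controls and 4.01% in mutants. Ndufa4l2, a paralogue of Ndufa4 also known to respond to low oxygen, had 89.7 and 94.3. Of the mitochondrial and metabolic lists, 1 gene was called: Mterf4, a partner in assembly of the mitochondrial ribosome, with a log2 ratio of 0.36 (adjusted p = 0.0112). Of the cell type markers, the pericyte marker Rgs5 was lower at -0.58 and the endothelial marker Erg at -0.64. Both went against their lists: 6 of 9 tested pericyte markers lay above 0 (median 0.13), and 9 of 10 endothelial markers did (median 0.32). All 8 tested erythroid markers lay above 0, with a median of 2.02, and 0 were called. The part of cell make-up in the members' values was not tested.

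In E11.5 pericytes 0 of 90 tested members were called, beside 3.35% of tested genes, and Atp5b alone passed at an adjusted p of 0.1. The nuclear median was 0.04, and it was -0.01 scaled to the summed means, with or without the mitochondrial and haemoglobin genes. Over all genes tested there, 3421 of 19301 had an unadjusted p under 0.05 in the authors' deposited table. Of the nuclear members 4 of 78 did, all above 0. These were Atp5b, with means of 10651 and 13398 (log2 ratio 0.33, SE 0.11, adjusted p = 0.0718), Atp5pb, a peripheral stalk subunit, Atp5a1 and Uqcrc1. The 3 besides Atp5b had log2 ratios of 0.31, 0.24 and 0.30. All 12 tested mitochondrially encoded genes lay below 0, with a median of -0.19. mt-Nd5 had means of 9075 and 5370.0 (log2 ratio -0.76, SE 0.36, adjusted p = 0.245), mt-Nd2 had 9691 and 5817, and mt-Nd4 had 24396 and 16492. These 3 complex I genes had the lowest ratios, at -0.76, -0.74 and -0.56, whereas mt-Cytb and mt-Atp6 stood at -0.06 and -0.07. Transcripts of 1 genome share their source, so 12 values below 0 are not 12 independent results. The mitochondrially encoded share of the summed means was 2.04% in controls and 1.72% in mutants.

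Of the genes the rule leaves out, Ndufa4l2 was lower in mutant E11.5 pericytes, with means of 201 and 98.2 (log2 ratio -1.03, SE 0.28, adjusted p = 0.0163 by the authors' deposited table), while Ndufa4 had 1596 and 1776. Its share of the pair's per-kilobase level was 5.84% and 2.65%. Ndufa4l2 is also known as a pericyte marker, and its value stands beside the 4 lower pericyte markers (Kcnj8, Abcc9, Cspg4 and Rgs5). The summed mean of the pericyte list was 13504 and 10829. Of 12 myeloid markers 3 were lower as well, with summed means of 2639 and 1346, and of 10 fibroblast and meninges markers 4 were lower, with 100227 and 75283. Of 9 tested endothelial markers 1, Erg, was lower and all 9 lay below 0, with a median of -0.97 and summed means of 1249.7 and 667. The part of a change in cell make-up in these values was not tested. The citric acid cycle had 1 of 16 genes higher, Cs, citrate synthase (log2 ratio 0.35, adjusted p = 0.0416), with 14 of the 16 above 0 and a median of 0.22. Glycolysis had 1 of 17 lower, Pfkp, the platelet form of phosphofructokinase, at -0.48 (adjusted p = 0.0298). Complex II had 0 of 4 called, with Sdha at 0.31 and Sdhd at 0.30.

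**Figure D4:**
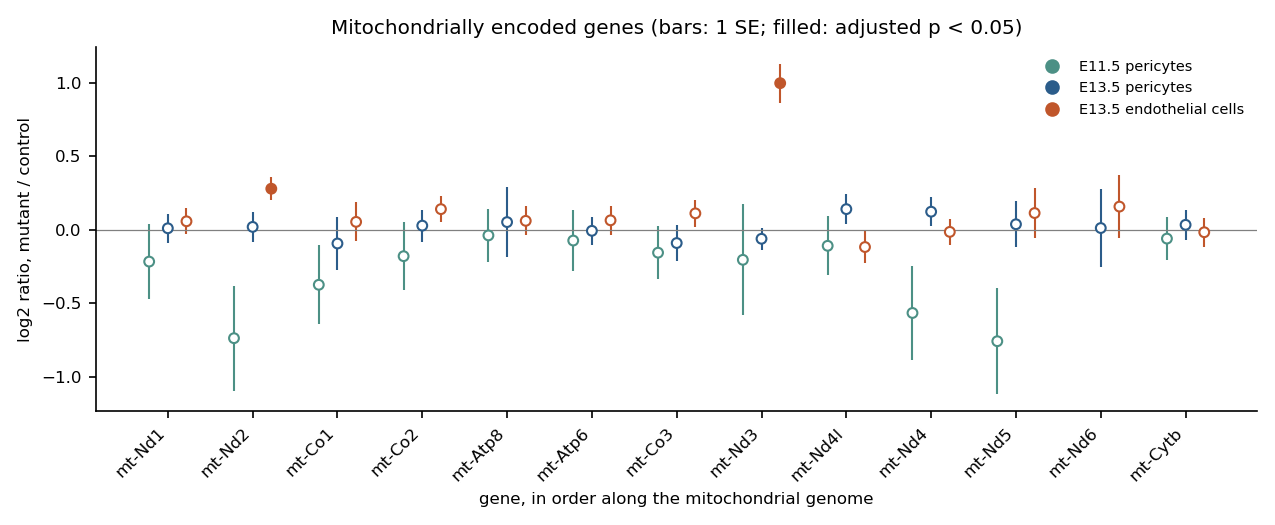
Log2 ratio of mutant to control (vertical axis) of the mitochondrially encoded genes in genome order, with bars of 1 SE, in the 3 comparisons. Filled points have an adjusted p under 0.05. The filled points are mt-Nd2 and mt-Nd3 in endothelial cells, at 0.28 and 1.00, and the E11.5 pericyte points run from -0.04 to -0.76.

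The levels of the mitochondrially encoded genes relative to mt-Cytb, per kilobase, were read within each table. In control E11.5 pericytes mt-Co1 stood at 0.331 times mt-Cytb and mt-Nd3 at 0.0111 times. In control endothelial cells mt-Co1 stood at 0.350 times and mt-Nd3 at 0.00594 times. In control E13.5 pericytes mt-Co1 stood at 1.34 times mt-Cytb, the only one of the 3 control groups where it was the higher of the pair, and mt-Nd3 at 0.109 times. The tables were normalized separately, and these values have no test.

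The ratios themselves were compared between E13.5 endothelial cells and E13.5 pericytes, whose libraries do not overlap. The difference of the log2 ratios, divided by the root of the summed squared SEs, was tested for 90 members with Benjamini-Hochberg adjustment over 16920 genes. It passed for 22 members, all with the higher ratio in endothelial cells, beside 3.94% of all genes in either direction and 2.95% above 0. With the rescaled spread it passed for 1 member, mt-Nd3, and for 15 of all genes. The median difference was 0.48 for nuclear and 0.08 for mitochondrially encoded members. The smallest adjusted p was that of mt-Nd3, with a difference of 1.06 (95% interval 0.76 to 1.36). Ndufa6 differed by 0.84 (0.50 to 1.17), Cox8a by 0.73 (0.43 to 1.04) and Atp5j2 by 0.89 (0.48 to 1.29). For Atp5a1 and Atp5b the differences were 0.00 (-0.23 to 0.24) and 0.01 (-0.23 to 0.25), which leaves room for a difference in either direction.

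**Figure D5:**
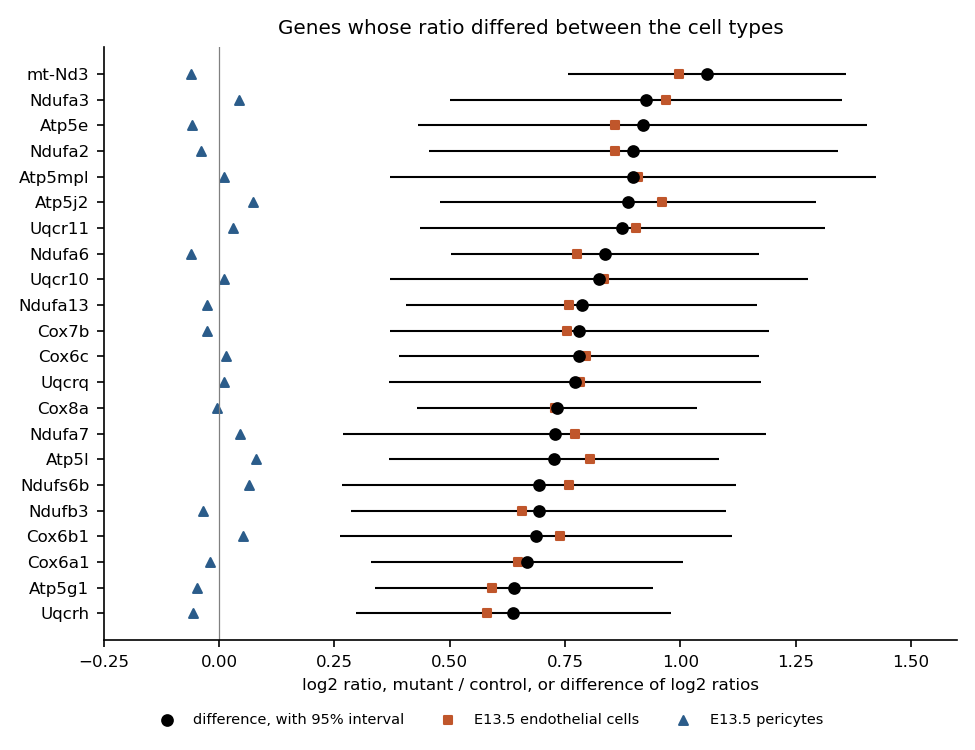
The 22 members whose ratio differed between the cell types, with the log2 ratio of mutant to control in endothelial cells (squares) and pericytes (triangles) at E13.5 and their difference (circles, with 95% intervals from the implied SEs). The pericyte values lie within 0.1 of 0, and the differences run from 0.64 to 1.06.

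Between the stages, E13.5 minus E11.5 pericytes, 0 of 89 members differed at an adjusted p of 0.05, beside 1.43% of 18267 genes. Of the members, 7 had an unadjusted p under 0.05, and the share of all genes at that p is not given here. The 7 were Atp5pb, Atp5b, Atp5a1 and Uqcrc1, lower at E13.5 by 0.24 to 0.29 in log2 ratio, and mt-Nd4, mt-Nd2 and mt-Nd5, with differences of 0.69, 0.76 and 0.80. All 12 mitochondrially encoded differences were above 0, with a median of 0.22, and the smallest adjusted p of any member was 0.287.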

How the data were processed

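RNA was measured by poly(A) RNA-seq in 24 libraries of 6 groups. The submitters' processing notes name Partek, Bowtie2, DESeq2 and mm10, without versions. The authors deposited 3 tables of mutant against control, each with a p-value, a step-up false discovery rate, a ratio and a signed fold change per gene. The deposited group means (a normalized signal whose scale is not given in the sources used here) are 1 value per group, so depth per library is unknown. No table holds values per library, and p-values measure the spread between libraries, whose origin from separate embryos is not stated.

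From these, log2 ratios, their implied SEs (a Wald test is assumed), medians and differences of ratios were computed. The differences had a two-sided normal test, with Benjamini-Hochberg over all genes tested in both tables. Tools were scipy 1.17.1, pandas 2.3.3 and numpy 2.4.6 under Python 3.11.15, with figures from matplotlib 3.10.9. The difference test was also run on simulated log2 ratios drawn with the implied SEs, which cannot show whether those SEs are too small. The deposited false discovery rates equal Benjamini-Hochberg values. Lengths and positions came from GENCODE M21 and promoters from RefSeq (GRCm38.p6).

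The members and lists were chosen with earlier results of these data known. Genes were named by rule: all mitochondrially encoded members, the called members with the smallest p, those with the largest ratios among higher-expressed genes, the highest per kilobase, paralogue pairs, core subunits, and up to 3 called genes per list. Other genes with values in the text, the roles of subunits and the length ranges were chosen after values were seen. Alternatives were the threshold, the filter on low genes, the scaling, the spread and the near copies. Not every member's values are reported here.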

Additional observations from a re-analysis of the deposited data

Results flagged for a closer look

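The ratio of mutant to control differed between E13.5 endothelial cells and E13.5 pericytes for 22 respiratory chain genes, by the test of the difference itself. Over all genes tested in both, 3.94% differed in either direction and 2.95% with a difference above 0. The values below are endothelial minus pericyte log2 ratios, all above 0. In complex I they were 1.06 for mt-Nd3, 0.93 for Ndufa3, 0.90 for Ndufa2, 0.84 for Ndufa6, 0.79 for Ndufa13, 0.73 for Ndufa7, and 0.69 for both Ndufb3 and the near copy Ndufs6b. In complex III they were 0.87 for Uqcr11, 0.82 for Uqcr10, 0.77 for Uqcrq and 0.64 for Uqcrh. In complex IV they were 0.78 for Cox6c and for Cox7b, 0.73 for Cox8a, 0.69 for Cox6b1 and 0.67 for Cox6a1. In the ATP synthase they were 0.92 for Atp5e, 0.90 for Atp5mpl, 0.89 for Atp5j2, 0.73 for Atp5l and 0.64 for Atp5g1.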

How the results depend on the processing

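With the spread of all genes' test statistics rescaled to a standard normal (the endothelial spread was 1.48 times wider), 1 member, mt-Nd3, was called in endothelial cells in place of 35, and 1 differed between the cell types in place of 22. Over all genes, 49 were called there in place of 1323, and 15 differed in place of 666. At an adjusted p of 0.1, 1 member was called in E11.5 pericytes in place of 0. Scaled to the summed means, the endothelial median of mitochondrially encoded members was -0.060 in place of 0.065, since that scaling moves every log2 ratio there by 0.13. The nuclear median of E11.5 pericytes changed sign within its spread, from 0.037 to -0.007 scaled to the summed means and to -0.015 scaled without mitochondrial and haemoglobin genes. These 2 are among the other 47 values of counts and medians under alternatives, all within 1.5 times the count or within the spread, and no other median among them changed sign. The count of 35 ranged from 28 to 46 under these, and the difference count of 22 from 16 to 32. The scalings of calls and the set without near copies were chosen after seeing the data.

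Leaving out each library in turn was not run. No paired analysis was possible because the tables hold group means only. Depth per library is unknown, so no limit from depth can be given.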
